A study of Mus musculus with 22 samples.

Results

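The genes described here encode the machinery that copies DNA in S phase. They are 46 genes taken from a list by their names, out of 52636 genes in the expression table of 22 RNA-seq libraries of mouse duodenal organoids. They fall into 10 role classes: 4 genes of origin licensing, the 6 subunits of the MCM helicase, 6 genes of helicase activation, 8 of the polymerases and primase, 7 of the sliding clamp and its loader, 3 of single-strand binding, 3 of Okazaki fragment maturation and uracil removal, 5 of nucleotide supply, 3 of chromatin and methylation maintenance, and the regulator E2f1.

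Each round of replication starts at origins, where the origin recognition complex, Cdc6 and Cdt1 load the MCM helicase onto DNA in G1. Cdc45 and the GINS complex turn the helicase on, primase and DNA polymerase alpha lay down primers, and polymerases delta and epsilon extend them while held by the clamp Pcna. Most of these genes are transcribed at the G1/S transition under E2F factors, and in the gut epithelium their products are found in the dividing stem and transit-amplifying cells of the crypt.

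The organoids were three-dimensional cultures of crypt epithelium from adult wild-type mice of the outbred CD1 strain, and each organoid line came from a different mouse. Untreated cultures of 4 lines (1 to 4 here, at passage 12, 14, 4 and 4 by the labels) gave 4 libraries, and lines 1, 2 and 4 gave 3 libraries in each treated group. Cold atmospheric plasma (CAP), an ionised helium jet run at 50 W for 60 s, was applied in direct CAP to the culture itself at day 1 and the medium was renewed after 30 min or 24 h. Indirect CAP cultures received medium taken from a CAP-treated culture, and PAM cultures received plasma-activated medium, treated with no organoids in it. Cultures had either medium from day 1 or day 2, with collection at day 3, so the day 1 groups had fresh medium again before collection. The sample labels give the day 1 groups of indirect CAP and PAM an exposure of 30 min. The schedule in the study's methods, 24 h in each of these groups, is used here. When the 30 min direct group was collected is not certain. The labels give no transgene for any culture and call the cells stem cells.

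Values are read counts scaled to a common total of about 20 M (M for mega) per library and not divided by gene length, so they were compared between libraries, and between genes only per kilobase of exon. The reads behind the libraries were estimated at 19.4 to 28.7 M (median 22.5). Summed over 8 epithelial markers the values ran from 89691 to 101655 in the untreated libraries and from 96103 to 149491 in the treated ones. Those of 6 fibroblast markers summed to at most 45 in any library, of 2 endothelial markers to at most 28 and of 5 leukocyte markers to at most 200. The 5 stem cell markers summed to between 32557 and 38876 in the untreated libraries and to between 757 and 2747 at PAM day 2.

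In the untreated libraries all 46 genes were measured well above the filter. Per kilobase of exon, Pcna was the highest, at 1103 ± 32.6 scaled reads (SD, n = 4), followed by Mcm6 at 756 ± 73.7, Pold2 at 752 ± 105 and Mcm5 at 745 ± 66.1, and these last 3 did not differ beyond their spread. Of the MCM subunits, which act as a ring with 1 copy of each, Mcm7 (734 ± 106) and Mcm3 (725 ± 100) lay close to Mcm6 and Mcm5, Mcm4 was at 580 ± 84.4 and Mcm2 at 363 ± 48.7. The lengths used join the exons of all annotated transcripts of a gene, so the order per kilobase depends on the annotation. Mcm2 has 6956 such bases and the other subunits 3589 to 4666. Not divided by length, the mean of Mcm2 was 2526, within the 2081.5 to 3528.5 of the other subunits. The lowest member was Gins3, at 48.3 ± 8.22, below Prim2 (69.8 ± 7.37) and Orc1 (76.2 ± 11.3). The spread over lines was small, with coefficients of variation from 2.96% for Pcna to 19.4% for Pold1.

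Promoter sequences (RefSeq, GRCm38.p6, 250 bases before to 50 after each start site) were found for 39 of the 46 genes. They were searched for E2F sites, the element this gene family is best known for, so the choice of genes itself favours a high share. The part of such sites in the fall of the members in the treated groups was not tested. The 4 octamers TTTCCCGC, TTTGGCGC, TTTCGCGC and TTTGCCGC, searched on both strands, were found in the windows of 15 of the 39 genes (38.5%), against 2.60% of the 27025 genes with a window and 4.23% of the 11477 of these that passed the filter in the organoids. In a list of 68 other replication and G1/S genes, described below, 17 of the 54 with a window (31.5%) held an octamer. The CCAAT box was found in 61.5% of the members, 48.1% of that list, 42.4% of the genes that passed the filter and 41.1% of all genes. For the CHR element TTTGAA these shares were 12.8%, 24.1%, 14.9% and 20.2%. Mcm6 held 3 octamer matches and Mcm5 and Pola1 held 2 and 1 upstream of every annotated transcript, printed below 5′ to 3′ on the gene's strand with the octamers in capitals. A run of 12 capitals is a pair of octamers that overlap on opposite strands.
Mcm5 promoter, chr8:75109336-75109387, plus strand: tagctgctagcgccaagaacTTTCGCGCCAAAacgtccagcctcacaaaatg
Mcm6 promoter, chr1:128359725-128359835, minus strand: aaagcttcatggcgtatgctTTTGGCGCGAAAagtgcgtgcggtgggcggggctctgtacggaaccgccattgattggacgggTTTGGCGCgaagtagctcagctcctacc
Pola1 promoter, chrX:93632266-93632313, minus strand: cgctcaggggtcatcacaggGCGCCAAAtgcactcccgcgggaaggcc
A match is a description of these letters and not a shown binding site. At PAM day 2 the 15 members with an octamer had log2 fold changes from -4.07 to -1.16 (median -2.48) and the 24 without from -3.11 to -0.51 (median -2.09), so the ranges overlapped over most of their length.

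The summed value of the 46 genes was 59076 ± 5320 in the untreated libraries (SD, n = 4) and lower in every treated group. The mean sum was 51449 after direct CAP for 30 min, 41080 at indirect CAP day 1 (69.5% of untreated), 39849 after direct CAP for 24 h (67.5%), 31430 at PAM day 1 (53.2%), 23854 at indirect CAP day 2 (40.4%) and 15639 ± 4306 at PAM day 2 (26.5%). The 3 PAM day 2 libraries were at 20611, 13167 and 13138 for lines 1, 2 and 4, so line 1 kept more of these transcripts than the other lines. RNA of whole cultures does not tell fewer cells in S phase from less of each transcript per cell.

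**Figure D1:**
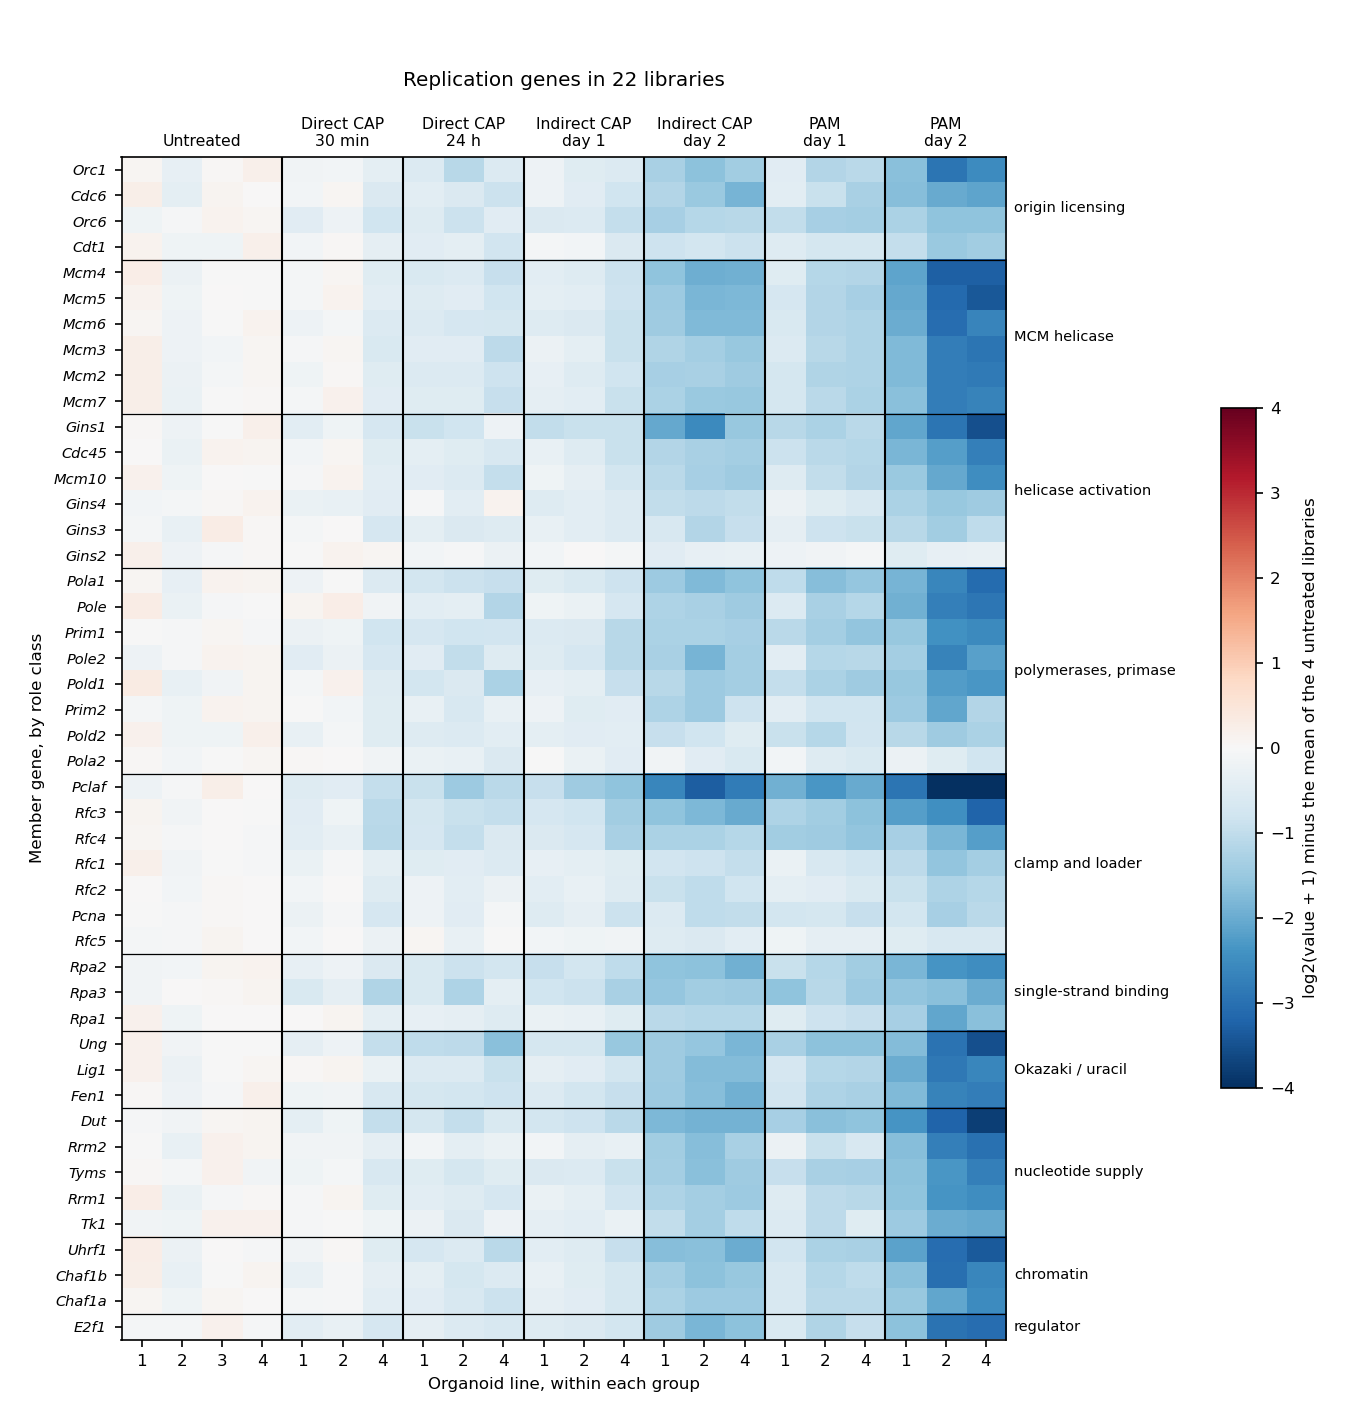
Each row is a replication gene, grouped by role, and each column a library, ordered by group and labelled with its organoid line. The colour is log2(value + 1) minus the mean of the 4 untreated libraries, and blue, lower than untreated, deepens from direct CAP to indirect CAP day 2 and PAM day 2, while Gins2, Pola2 and Rfc5 stay pale.

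The first question was which exposures lowered the replication genes. The 6 comparisons share the same 4 untreated libraries as reference and were made by limma's moderated test on log2(value + 1), and a gene was called where the Benjamini-Hochberg adjusted p over all genes was under 0.01 and the log2 fold change at least 1 in size. PAM day 2 lowered 43 of the 46 genes, with 10.5% of all genes tested called lower, and indirect CAP day 2 lowered 37, with 5.71% of all genes. PAM day 1 lowered 20 (5.4% of all genes), direct CAP for 24 h lowered 2, Ung and Pclaf (0.917%), and indirect CAP day 1 lowered Pclaf alone (0.477%). After direct CAP for 30 min 0 members and 0% of all genes were called lower by limma, with an unadjusted p under 0.05 for 14 members (11% of all genes).

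The median log2 fold change of the members was -0.21 after direct CAP for 30 min, -0.54 at indirect CAP day 1, -0.63 after direct CAP for 24 h, -0.95 at PAM day 1, -1.37 at indirect CAP day 2 and -2.19 at PAM day 2. The medians of all genes tested in these comparisons were 0.02, 0.00, -0.08, -0.13, -0.01 and -0.12. All 46 members had negative fold changes in every group but the 30 min one, where Pole (0.08) and Gins2 (0.06) did not. The small counts after direct CAP for 24 h and at indirect CAP day 1 depend on the call rule. With the fold limit dropped and the adjusted p relaxed to 0.05, 35 members were lower after direct CAP for 24 h (10.2% of all genes) and 31 at indirect CAP day 1 (10.4%).

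The libraries were also compared without a test. Every treated library lay below every untreated one for 46 members at PAM day 2 (32.6% of all genes) and at indirect CAP day 2 (25.8%), for 44 at PAM day 1 (29.7%), 41 after direct CAP for 24 h (19.1%), 36 at indirect CAP day 1 (17.7%) and 13 after direct CAP for 30 min (11.2%). The last of these counts hides a difference between lines, since 43 members lay below all untreated libraries in the 30 min library of line 4 and 20 and 13 in those of lines 1 and 2. Without that library the median of the members after 30 min was -0.09. In the whole table no member was above all untreated libraries in any treated library.

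**Figure D2:**
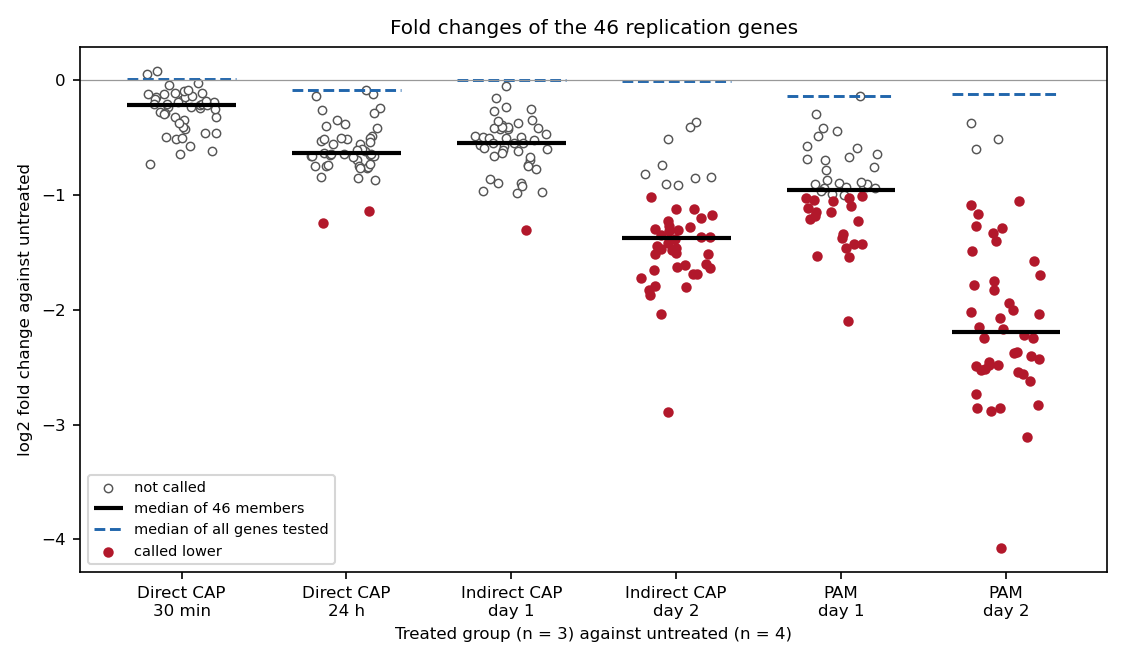
Log2 fold change of each of the 46 genes (points) in each treated group (n = 3) against untreated (n = 4). Filled points were called lower, black lines are the medians of the 46 genes and dashed lines those of all genes tested, and the black line falls to -2.19 at PAM day 2 while the dashed line stays between -0.13 and 0.02.

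The MCM helicase moved as a block. Mcm2 was at 2932, 2147, 2379 and 2645 in the untreated libraries of lines 1 to 4, and at 2212, 2589 and 1803 after direct CAP for 30 min in lines 1, 2 and 4. It was at 1701, 1703 and 1412 after direct CAP for 24 h, 1982, 1757 and 1448 at indirect CAP day 1 and 993, 1021 and 938 at indirect CAP day 2. The PAM libraries held 1547, 1093 and 1062 at day 1 and 735, 369 and 352 at day 2. Outside the 30 min group no treated library reached the untreated range, and the log2 fold change was -1.35 ± 0.11 (SE) at indirect CAP day 2 and -2.45 ± 0.25 at PAM day 2 (limma adjusted p = 8.2e-05 and 0.000411).

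Mcm5 (chr8:75109569-75128439) was at 3295, 2651, 3003 and 2952 untreated, 2818, 3294 and 2225 after direct CAP for 30 min and 2065, 2162 and 1694 after 24 h. It was at 2286, 2195 and 1670 at indirect CAP day 1, 1085, 843 and 847 at indirect CAP day 2, 1876, 1320 and 1177 at PAM day 1 and 712, 345 and 281 at PAM day 2. The 30 min libraries overlapped the untreated range and the others did not, and at PAM day 2 the fold change was -2.85 ± 0.28 (adjusted p = 0.000378). Mcm4 fell the most of the class, from 2483, 1747, 2038 and 2058 to 475, 215 and 214 at PAM day 2 (-2.88 ± 0.28), and Mcm7 the least, from 3827, 2694, 3157 and 3321 to 1011, 472 and 509 (-2.37 ± 0.26). The 6 subunits thus spanned 0.51 on the log2 scale, the SEs being 0.23 to 0.28. In the order direct CAP 30 min, direct CAP 24 h, indirect CAP day 1, indirect CAP day 2 and PAM day 1, the means of Mcm4 were 1869, 1288, 1381, 586 and 1108. Those of Mcm7 in the same order were 3013, 2093, 2219, 1207 and 1605. Of the untreated mean, Mcm4 kept 28.2% and Mcm7 37.2% at indirect CAP day 2.

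The licensing genes fell less evenly. Orc1, an ATPase subunit of the origin recognition complex, was at 280, 209, 272 and 300 untreated and at 81, 34 and 45 at PAM day 2, a log2 fold change of -2.37 ± 0.29 (limma adjusted p = 0.000652). Its means in the other groups were 228 after direct CAP for 30 min, 159 after 24 h, 198 and 96.3 at indirect CAP days 1 and 2, and 143 at PAM day 1. Cdt1, which brings MCM to the origin, kept the most of the class, from 1561, 1233, 1252 and 1599 to 722, 496 and 529 (-1.29 ± 0.16). It was not called at indirect CAP day 2, where the values were 793, 834 and 765 and the fold change -0.81. Its means were 1273 and 976 after direct CAP for 30 min and 24 h, 1181 at indirect CAP day 1 and 899 at PAM day 1. Cdc6 (-1.94) and Orc6 (-1.49) lay between them.

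The genes of helicase activation ranged from -2.83 to -0.37 at PAM day 2. The GINS complex contains Gins1 to Gins4 in equal number, but there Gins1 changed by -2.83 ± 0.32, Gins4 by -1.40 ± 0.12, Gins3 by -1.16 ± 0.20 and Gins2 by -0.37 ± 0.11. Gins1 (chr2:150905400-150931280) went from 231, 196, 222 and 257 untreated to 53, 29 and 19 at PAM day 2, and its means between were 169 and 149 after direct CAP for 30 min and 24 h, 119 and 56.7 at indirect CAP days 1 and 2 and 101 at PAM day 1. Gins2 (chr8:120578633-120589304) was at 1188, 907, 1015 and 1061 untreated and at 744, 822 and 842 at PAM day 2, with means of 1081, 944.7, 1003, 807 and 943 in the groups between. Its libraries at PAM day 2 lay below the untreated ones by a small margin, and it was not called (adjusted p = 0.028). Of the exon bases of Gins2, 67.3% are shared with Gse1 on the opposite strand, and the sources used here do not say whether strand was used in counting, so reads of this pair cannot be told apart. Cdc45 (-2.25) and Mcm10, which act with GINS at the helicase, were called lower.

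**Figure D3:**
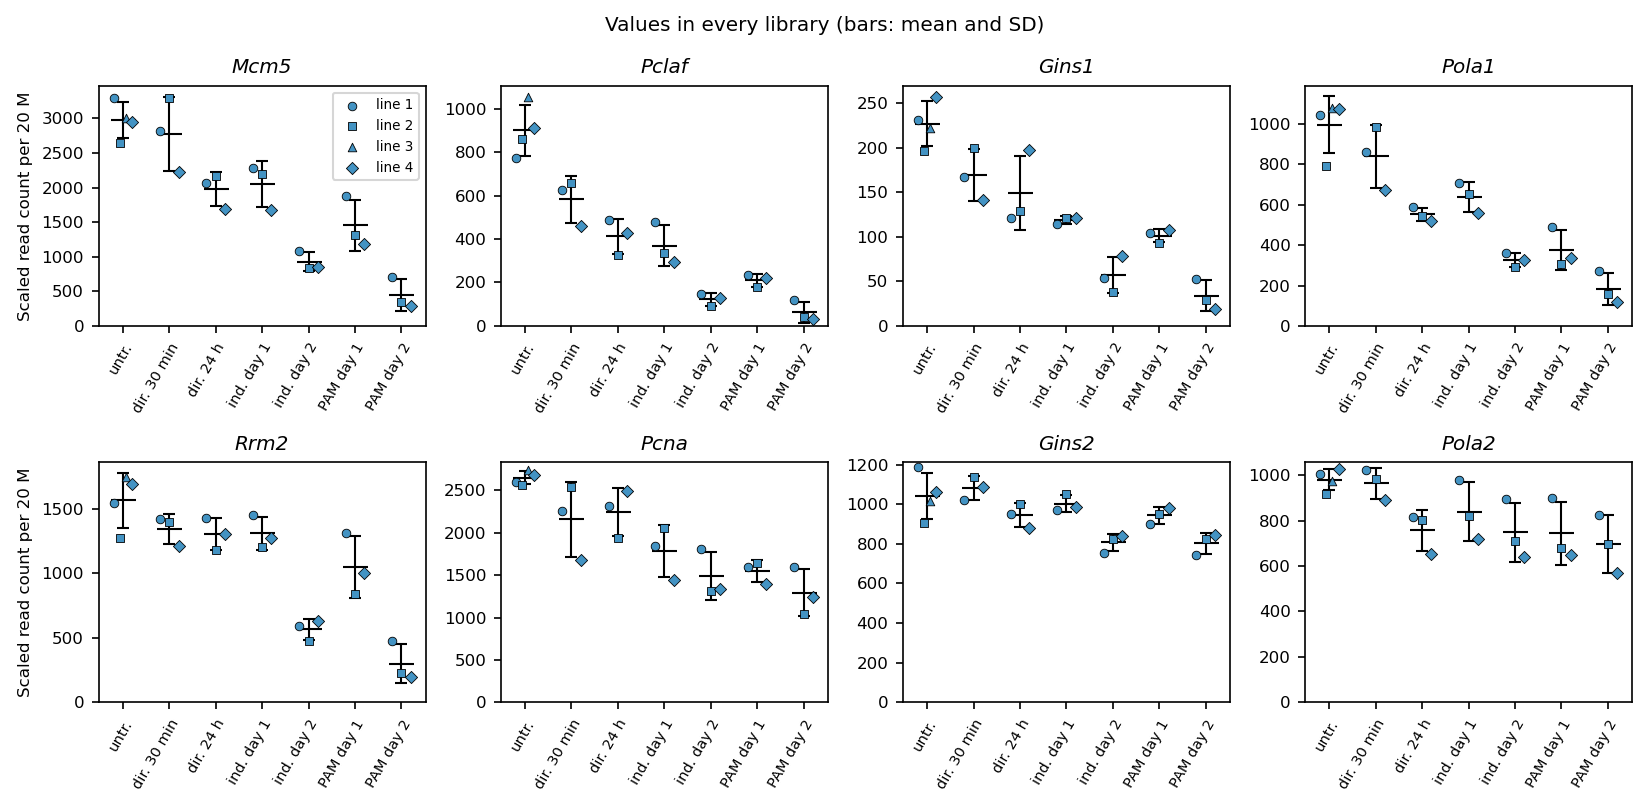
Scaled read counts per 20 M in every library for 8 genes by group, with a marker for each organoid line and bars for mean and SD. Mcm5, Rrm2, Pclaf, Gins1 and Pola1 keep at most 19.2% of the untreated mean at PAM day 2, whereas Gins2 and Pola2, subunits of the same complexes as Gins1 and Pola1, keep 77.0% and 71.0%. Gins2 shares 67.3% of its exon bases with Gse1 on the opposite strand, so its counts may include reads of Gse1.

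A like split was found in DNA polymerase alpha. Pola1, its catalytic subunit (chrX:93304767-93632155), was at 1043, 790, 1080 and 1077 untreated and 270, 160 and 116 at PAM day 2, a log2 fold change of -2.52 ± 0.27 (limma adjusted p = 0.000419). Pola2, its accessory subunit (chr19:5940542-5964202), was at 1004, 916, 974 and 1025 untreated and 823, 696 and 569 at PAM day 2, a fold change of -0.51 ± 0.13 that was not called (adjusted p = 0.0148). Pola1 means in the other groups were 841, 552, 640, 325 and 377, in the order direct CAP 30 min, direct CAP 24 h, indirect CAP day 1, indirect CAP day 2 and PAM day 1, and those of Pola2 were 964, 757, 839, 747 and 743. The Pola2 means of the last 4 of these groups thus lay between 743 and 839, and no other annotated gene overlaps its exons. The primase subunits Prim1 (-2.16) and Prim2 (-1.57), the catalytic subunits Pole (-2.51) and Pold1 (-2.02), and the accessory subunits Pole2 (-2.07) and Pold2 (-1.27) were all called lower at PAM day 2.

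Pclaf, a small protein that binds Pcna in S phase, had the lowest fold change of all members in 4 of the 6 groups. Pclaf (chr9:65890237-65903266) was at 776, 862, 1054 and 914 untreated, 627, 661 and 461 after direct CAP for 30 min and 486, 326 and 428 after 24 h. It was at 477, 337 and 295 at indirect CAP day 1, 146, 91 and 129 at indirect CAP day 2, 235, 177 and 219 at PAM day 1 and 118, 40 and 30 at PAM day 2. All 18 treated libraries lay below all untreated ones, already in the 30 min group, and the PAM day 2 mean was 6.95% of the untreated mean. The log2 fold changes were -0.64 ± 0.15 after direct CAP for 30 min (limma adjusted p = 0.106), -1.13 ± 0.16 after 24 h, -1.31 ± 0.17 at indirect CAP day 1, -2.89 ± 0.17 at indirect CAP day 2, -2.10 ± 0.14 at PAM day 1 and -4.07 ± 0.41 at PAM day 2.

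The clamp itself changed far less. Pcna (chr2:132249162-132253314) was at 2600, 2567, 2741 and 2678 untreated, 2257, 2539 and 1678 after direct CAP for 30 min and 2311, 1940 and 2489 after 24 h. It was at 1839, 2060 and 1448 at indirect CAP day 1, 1811, 1317 and 1338 at indirect CAP day 2, 1596, 1640 and 1400 at PAM day 1 and 1596, 1045 and 1241 at PAM day 2. The treated libraries lay below the untreated ones throughout, with 48.9% of the untreated mean left at PAM day 2. That fold change, -1.05 ± 0.14 (limma adjusted p = 0.00082), is just past the limit, and Pcna was no longer called without the library of line 2 (-0.91) or after quantile normalization (-0.98).

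Of the clamp loader, a ring of 5 subunits, Rfc3 (-2.62) and Rfc4 (-1.78) changed the most at PAM day 2, and Rfc1 (-1.33) and Rfc2 (-1.09) were called too. Rfc5 was at 1220, 1261, 1413 and 1311 untreated and 919, 825 and 840 at PAM day 2, so the libraries did not overlap, but its fold change of -0.59 ± 0.09 was under the minimum (limma adjusted p = 0.00171). Its means in the groups between were 1204, 1237, 1169, 914 and 1062. Rfc5 shares 10.7% of its exon bases with Wsb2 and Rfc4 12.7% with Eif4a2, both on the opposite strand. Since the loader subunits differ by 2.03 on the log2 scale within the same libraries, the fall was unequal within this complex, as it was within GINS and polymerase alpha.

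The 3 subunits of RPA, which coats single-stranded DNA, were called lower at PAM day 2, with Rpa2 at -2.22 ± 0.17, Rpa3 at -1.74 ± 0.14 and Rpa1 at -1.69 ± 0.17. Rpa2 fell from 760, 779, 893 and 908 to 234, 162 and 149, with means of 647, 503, 449, 253 and 380 in the groups between. Rpa1 fell from 1883, 1483, 1706 and 1688 to 668, 402 and 526, with means of 1598, 1278, 1324, 773 and 1010. Both were lower at day 2 than at day 1 of either medium. Rpa3 was already at 317, 379 and 213 after direct CAP for 30 min, against 439, 489, 506 and 522 untreated, the largest change of any member in that group (-0.73, adjusted p = 0.11).

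Ung, which removes uracil from DNA, was at 719, 580, 639 and 632 untreated, 314, 311 and 202 after direct CAP for 24 h and 191, 82 and 55 at PAM day 2. Its fold changes were -1.24 ± 0.17 after direct CAP for 24 h (limma adjusted p = 0.00445), the largest of any member there, and -2.74 ± 0.36 at PAM day 2, and its other means were 465 after direct CAP for 30 min, 337 and 212 at indirect CAP days 1 and 2 and 222 at PAM day 1. The flap nuclease Fen1 went from 1718, 1443, 1634 and 1945 to 495, 263 and 244 (-2.40 ± 0.24), with means of 1360, 993.7, 1013, 523 and 795 between, and shares 78.8% of its exon bases with the antisense gene Gm10143. Ligase Lig1, which seals the fragments, was at -2.49.

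In nucleotide supply the fold changes at PAM day 2 ran from Dut, the enzyme that destroys dUTP, at -3.11 ± 0.29, to the thymidine kinase Tk1 at -1.83 ± 0.17. Dut went from 976, 907, 1069 and 1096 to 197, 109 and 73, and its means were 728, 599, 547, 276 and 349 in the groups between. Tk1 went from 1055, 1017, 1295 and 1292 to 422, 292 and 279, with means of 1091, 919, 911, 534 and 726. Dut had the second lowest fold change of the members at PAM day 1 and at PAM day 2, and Ung, which also keeps uracil out of DNA, the third at PAM day 1. Tyms, which makes thymidylate, was at -2.24 and Rrm1, the large subunit of ribonucleotide reductase, at -2.15.

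Rrm2, the small subunit of ribonucleotide reductase, was at 1544, 1274, 1749 and 1693 untreated, 1423, 1395 and 1214 after direct CAP for 30 min, 1431, 1183 and 1303 after 24 h and 1453, 1203 and 1273 at indirect CAP day 1. It was at 593, 473 and 630 at indirect CAP day 2, 1309, 836 and 1002 at PAM day 1 and 474, 231 and 197 at PAM day 2. The libraries of direct CAP, indirect CAP day 1 and PAM day 1 overlapped the untreated range and those of both day 2 groups were far below it, with fold changes of -1.47 ± 0.14 and -2.48 ± 0.28 (limma adjusted p = 0.000148 and 0.000516). At PAM day 1 the fold change was -0.59 ± 0.17 (adjusted p = 0.0214), and it was not called.

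Uhrf1, which helps to carry DNA methylation onto new strands, was at 3702, 2572, 3064 and 2972 untreated and 689, 365 and 298 at PAM day 2 (-2.85 ± 0.27, limma adjusted p = 0.000347). Its means were 2718, 1818, 2017, 886 and 1430 in the groups between. Of the histone chaperone CAF-1, Chaf1b was at -2.43 and Chaf1a at -2.04 ± 0.22, from 1571, 1313, 1568 and 1497 to 521, 349 and 258, with means of 1314, 953, 1053, 568 and 782 between. Chaf1a shares 52.5% of its exon bases with Ubxn6 on the opposite strand.

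E2f1, a transcription factor that drives many of these genes, was at 380, 376, 451 and 388 untreated, 295, 324 and 251 after direct CAP for 30 min and 312, 272 and 257 after 24 h. It was at 275, 267 and 241 at indirect CAP day 1, 149, 112 and 126 at indirect CAP day 2, 259, 172 and 210 at PAM day 1 and 127, 51 and 47 at PAM day 2. No treated library reached the lowest untreated value, and E2f1 was called at both day 2 groups, at -1.63 ± 0.13 and -2.54 ± 0.33 (limma adjusted p = 8.34e-05 and 0.000751).

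**Figure D4:**
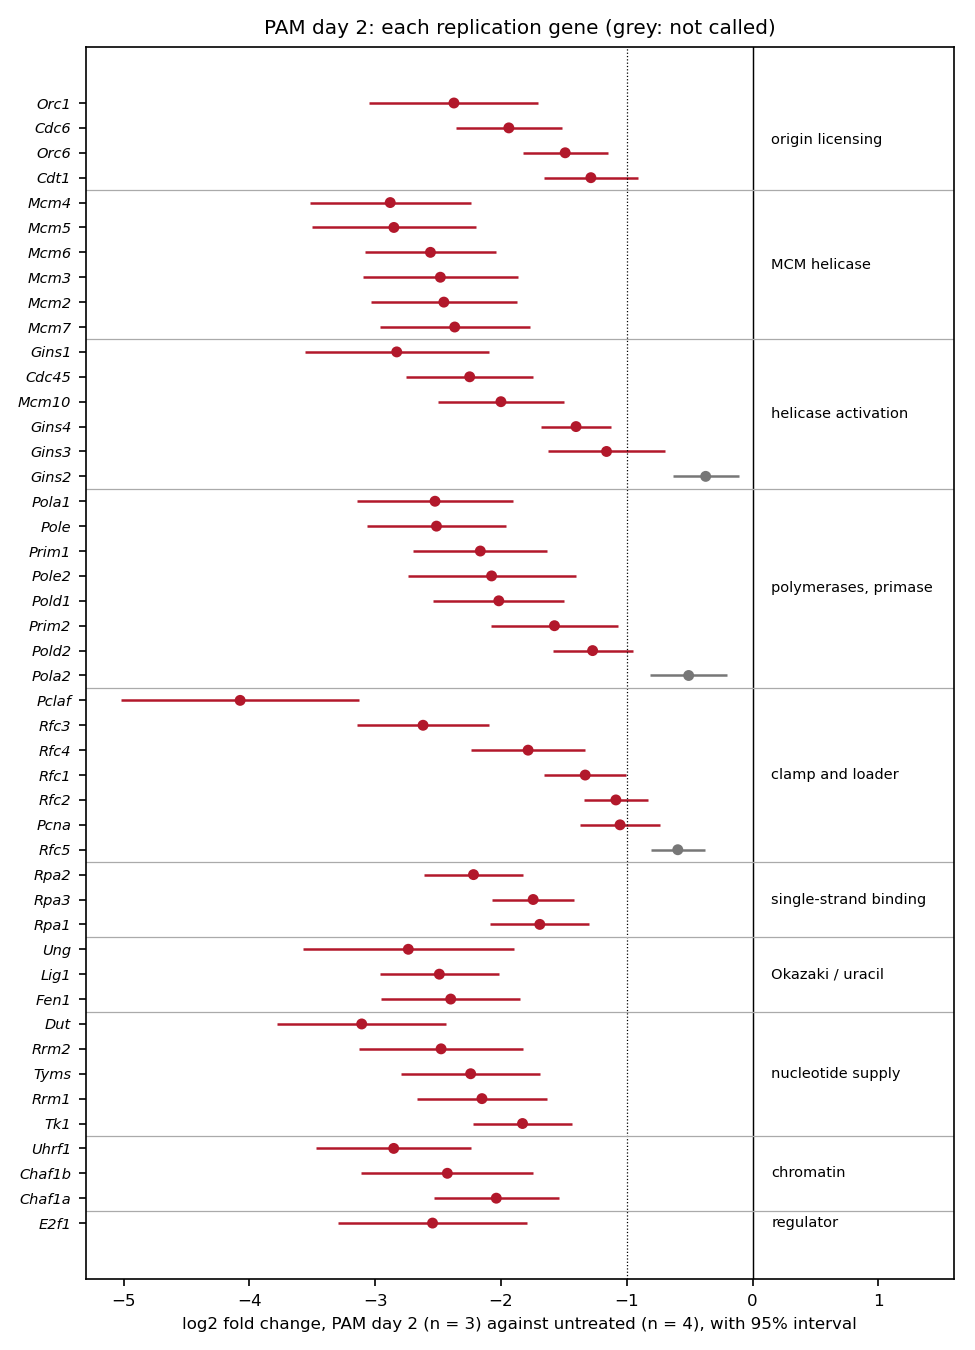
Log2 fold change at PAM day 2 (n = 3) against untreated (n = 4) for each of the 46 genes, grouped by role, with 95% intervals. The dotted line marks the minimum fold change, and Gins2, Pola2 and Rfc5, in grey, are the 3 genes not called.

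By class, E2f1 stood at -2.54 at PAM day 2, and the medians were -2.52 for the MCM helicase, -2.49 for Okazaki maturation and uracil removal, -2.43 for chromatin, -2.24 for nucleotide supply, -2.05 for the polymerases and primase, -1.74 for RPA, -1.71 for licensing, -1.70 for helicase activation and -1.33 for the clamp and loader. Beside them, the 5 markers of cycling cells had a median of -2.33 and were all called lower, with sums from 16937 to 22568 in the untreated libraries and from 2675 to 6170 at PAM day 2. At indirect CAP day 2 the median was -1.45 for these markers and -1.37 for the members, and at PAM day 1 -0.88 and -0.95. The members were lower than the markers after direct CAP for 24 h (-0.63 and -0.49) and at indirect CAP day 1 (-0.54 and -0.40). After direct CAP for 30 min the medians were -0.21 for the members and -0.04 for the markers. Of the 5 markers, 2 were called lower at PAM day 1 (5.4% of all genes). The part of a loss of cycling cells in the fall of the replication genes was not tested.

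After direct CAP for 30 min the fold change rose with exon length across the members. Over the 46 members, log2 exon length and log2 fold change had a Spearman rho of 0.55 and a Pearson r of 0.59, against 0.05 and -0.03 over 17687 genes. Over the members the values were 0.36 and 0.34 at indirect CAP day 1, 0.15 and 0.12 at PAM day 1 and 0.11 and 0.07 at indirect CAP day 2. They were 0.01 and -0.07 after direct CAP for 24 h and -0.01 and -0.04 at PAM day 2. For PAM day 1 against direct CAP for 24 h they were 0.29 and 0.31, with 0.19 and 0.18 over all genes. These are correlations across genes of the same libraries, and genes are not independent replicates. The 5 lowest fold changes after direct CAP for 30 min were those of Rpa3, Pclaf, Rfc4, Rfc3 and Dut, and none was called. Their summed exon lengths are 1136, 4813, 1533, 3611 and 2410 bases. Gins4 and Gins1, at 1349 and 1516 bases, were not among these 5. The part of RNA quality or library preparation in this relation was not tested.

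The next question was whether the replication genes differed between exposure from day 2 and exposure from day 1. The day 2 groups were set against the day 1 groups, 3 libraries against 3. By the study's description the day 1 cultures had freshly made medium and the day 2 cultures medium made a day before use, and only the day 1 cultures had fresh medium again before collection. The age of the medium, the day of exposure and the time since exposure therefore cannot be told apart. For indirect CAP the median difference of the members was -0.82, against -0.03 for all genes, and for PAM it was -1.12, against -0.02. By limma 0 members were called lower for indirect CAP (0% of all genes) and 0 for PAM (0%). An unadjusted p under 0.05 was reached by 43 members for indirect CAP (12.6% of all genes) and 38 for PAM (14.1%), and all day 2 libraries lay below all day 1 libraries for 42 (14.7%) and 39 (16.9%). At an adjusted p under 0.05 alone, 26 members were lower for indirect CAP (2.21% of all genes).

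Since the same 3 lines were in both groups, the line was also used as a replicate block. With it 11 members were called lower at indirect CAP day 2 against day 1: Uhrf1, Mcm5, Cdc6, Rrm2, Mcm4, Chaf1b, Gins1, E2f1, Orc1, Pclaf and Lig1. For PAM the block called 0. With all 7 groups in a single fit, which shares the spread between them, 28 members were called for PAM and 1 for indirect CAP. The shares of all genes called with the block and in the single fit are not given here. These counts are therefore not read as particular to the members. The block also changed the small counts given above, to 1 member after direct CAP for 24 h (Ung) and 0 at indirect CAP day 1.

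Among the members, those that differed the most between PAM day 1 and day 2 were Pclaf (-1.98, 95% interval -3.13 to -0.82), Mcm4 (-1.95, -2.77 to -1.12) and Rrm2 (-1.89, -2.70 to -1.07). In these genes the lines were apart, with Rrm2 at 1309 and 474 in line 1, 836 and 231 in line 2 and 1002 and 197 in line 4. At the other end were Pola2 (-0.09, -0.55 to 0.36), Gins2 (-0.23, -0.50 to 0.03), Orc6 (-0.26, -0.73 to 0.20), Pcna (-0.27, -0.68 to 0.13) and Rfc4 (-0.33, -0.91 to 0.25), whose intervals include no difference. These intervals come from the fit that does not pair the lines. Compared within lines, Gins2 and Orc6 were lower at day 2 in every line, and Pola2, Pcna and Rfc4 were not.

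Rfc4 and Orc6, picked for a closer look after their values were seen, had been called at PAM day 1 already. Rfc4, at 578, 530, 562 and 539 untreated, was at 211, 205 and 186 at PAM day 1 and 220, 155 and 119 at day 2, so that its libraries overlapped between the days. Orc6, at 383, 424, 479 and 464 untreated, was at 220, 173 and 169 and then at 182, 142 and 143, and these overlapped too. Within each line, however, Orc6 was lower at day 2, while Rfc4 in line 1 was not. Mcm4 by contrast was at 1462, 945 and 916 at PAM day 1 and at 475, 215 and 214 at day 2, with no overlap.

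**Figure D5:**
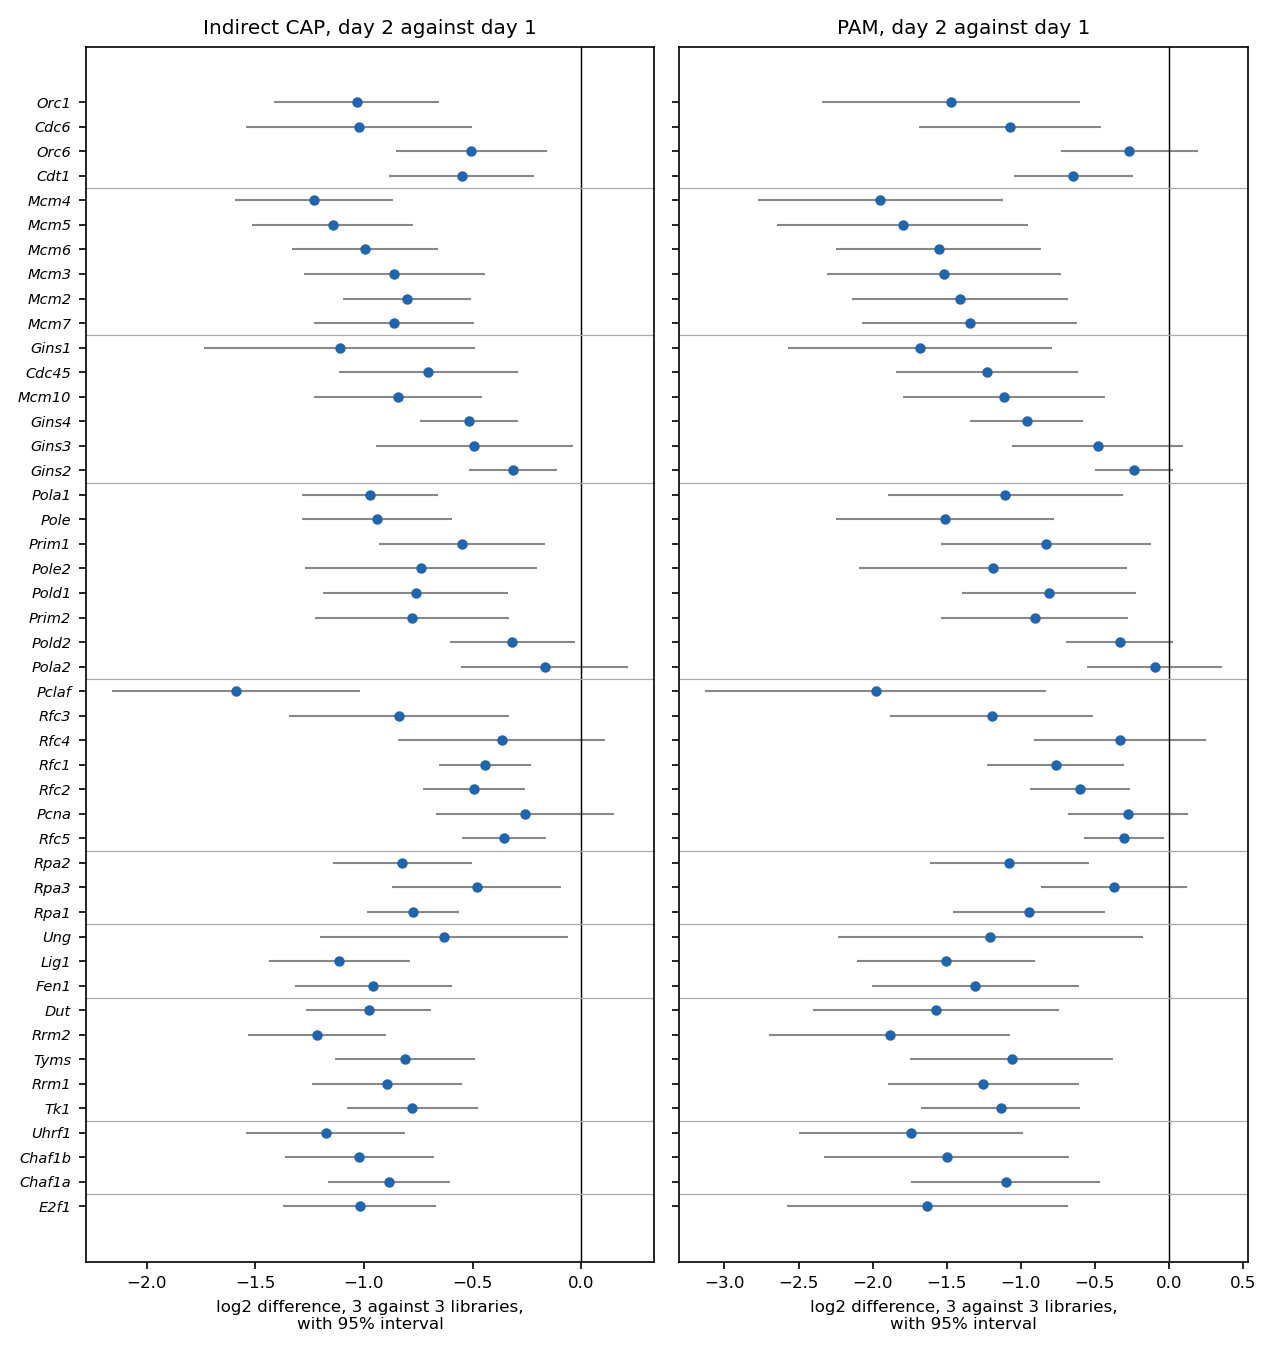
Log2 difference between the day 2 and day 1 groups (3 against 3 libraries) of indirect CAP, left, and PAM, right, for each gene, with 95% intervals. All 46 genes lie below 0 in both panels, with Pclaf, Mcm4 and Rrm2 the farthest and Pola2 the nearest to 0.

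The last question was whether the way the plasma reached the cells mattered at like timing. PAM day 2 was set against indirect CAP day 2, where the median difference of the members was -0.75 and that of all genes -0.11. By limma 0 members were called (0% of all genes), with an unadjusted p under 0.05 for 30 members (8.55%) and no overlap of libraries, PAM lower, for 28 (13.6%). The lowest were Dut (-1.24, 95% interval -2.06 to -0.42), Pole (-1.20, -1.82 to -0.58) and Pclaf (-1.18, -2.38 to 0.03). Gins2 (-0.01, -0.26 to 0.25) and Rfc5 (-0.08, -0.33 to 0.16) had intervals that include 0.

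Likewise, the PAM day 1 libraries were compared with those of direct CAP for 24 h, both of which had plasma-treated medium from day 1. The median difference of the members was -0.35 and that of all genes -0.04. By limma 0 members were called (0% of all genes), with an unadjusted p under 0.05 for 15 (7.01%) and PAM lower without overlap for 13 (10.5%). Pclaf (-0.96, 95% interval -1.42 to -0.50), Dut (-0.78, -1.13 to -0.42) and Rfc4 (-0.72, -1.09 to -0.35) were the lowest, and Gins2 (0.00, -0.26 to 0.26) and Pola2 (-0.04, -0.42 to 0.35) the nearest to 0.

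A list of 68 other replication and G1/S genes gave the setting. At PAM day 2, 38 of them were called lower and 2 higher, with a median of -1.18, beside the 43 of 46 members. The lowest were Dscc1, a part of the cohesion clamp loader, at -2.77, Tipin, of the fork protection complex, at -2.73 and the histone chaperone Asf1b at -2.69. At indirect CAP day 2 it was 26 lower and 2 higher, at PAM day 1 15 and 2, after direct CAP for 24 h 1 and 2, and at indirect CAP day 1 0 and 1. The shares of all genes called higher are not given here, so the counts of higher genes cannot be set against them. Of the 18 fork genes 11 were called lower at PAM day 2, of the 8 chromatin genes 6, of the 7 firing genes 4, of the 8 nucleotide genes 4, of the 8 origin and licensing genes 3, of the 12 E2F and pocket protein genes 5 and of the 7 G1/S cyclins and inhibitors 5.

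The genes called higher were Cdkn1a and Pold4. Cdkn1a encodes p21, an inhibitor of cyclin-dependent kinases that also binds Pcna. It was at 2142, 1868, 1986 and 1744 untreated and at 6539, 8525 and 5428 at PAM day 2 (1.80 ± 0.15), and was higher in every group but direct CAP for 30 min, where 2438, 3243 and 3049 lay above the untreated range with a fold change of 0.58 (limma adjusted p = 0.100). Pold4, the smallest subunit of DNA polymerase delta, was at 251, 308, 342 and 307 untreated and at 679, 730 and 1084 at PAM day 2 (1.43 ± 0.19), opposite to Pold1 and Pold2 of the same enzyme. It was also called after direct CAP for 24 h (1.30), at indirect CAP day 2 (1.08) and at PAM day 1 (1.49). Rb1, at 0.43, was the third highest at PAM day 2 and was not called.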

How the data were processed

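RNA of 22 organoid libraries was sequenced as paired-end reads of 100 bases. Per the labels, the authors trimmed reads with Trimmomatic 0.36, aligned them with STAR 2.5.3a to GRCm38 and counted them with HTSeq 0.9.1 (strand setting not given in the sources used here). The deposited value is a score: each gene's reads, rescaled by the authors to 20 M per library and rounded up. No test for raw counts was therefore run. The number of reads was estimated from the spacing of low values, with an error of at most 3.15% in 20 simulated libraries. At the filter limit of 10 a value rests on about as many reads, which limits its precision.

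Gene positions and exon lengths were those of GENCODE vM21 (52489 of 52636 identifiers matched, 99.7%). The test was limma 3.58.1 in R 4.3.3, trended, on log2(value + 1), in fits of the 2 groups compared, keeping genes that reached 10 in 3 or more libraries. Adjusted p-values are over all genes tested. On simulated data, 200 of 200 changed genes were found with 0 false calls, in both designs (3 against 4 libraries, 17208 genes, and 3 against 3, 17011 genes). The changed genes there had means well above the filter and changes larger than the minimum fold. The simulated libraries were independent and carried no line effect. That result therefore does not give the power or the rate of false calls of the test on the real libraries. Nothing in the labels says that libraries of a group shared a culture, and all 24 replicate pairs differed beyond sampling noise.

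Replicate numbers mark organoid lines as the labels name them, so by the labels the same number means the same animal. Between treated libraries of a line the correlation of deviations from group means was 0.22 to 0.81 in 45 pairs (median 0.56), and between lines its median was -0.33. Untreated libraries of lines 1 and 2 correlated less with their own line (medians 0.08 and 0.13) than with each other's (0.54 and 0.35), so the block is uncertain against untreated. Whether the untreated labels of lines 1 and 2 were exchanged was not tested, and untreated values are given by the labels.

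The members and lists were chosen with earlier results of these data known. Values or means in every group are given for Mcm2, Mcm5, Pcna, Pclaf, Rrm2 and E2f1 and for the lowest and highest fold change of each class at PAM day 2. From the wider list of 68 genes, those called higher and the 3 lowest and 3 highest are named. Cell type markers were summed per library. Motifs were searched with Python 3.11.15 and figures drawn with matplotlib 3.10.9. The search for Pcna-binding motifs in proteins was not done, since protein sequences are not used here. The alternatives left out each library, put the line in as a replicate block, fitted all 7 groups at once, dropped the filter or the minimum fold (adjusted p under 0.05), used a pseudocount of 10 or quantile-normalized the values.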

Additional observations from a re-analysis of the deposited data

Results flagged for a closer look

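In the untreated group of 4 libraries, 3 of the 46 genes had a library whose gap to the nearest of the others, divided by the range of the group, was above Dixon's 95% limit. Chance flags about 1 in 20 groups of this kind. Pola1 was low in line 2, at 790 against 1043, 1080 and 1077 in the other lines (0.872 of the range). Prim1 was high in line 3, at 776 against 721, 711 and 713 (0.846). E2f1 was also high in line 3, at 451 against 380, 376 and 388 (0.840). All treated libraries of the groups in which these genes were called lay below the lowest of these values. Between 2 treated groups no member was called by limma when only those groups were fitted without the replicate block. With the block 11 members were called at indirect CAP day 2 against day 1, and with all 7 groups in 1 fit 28 members were called at PAM day 2 against day 1 and 1 at indirect CAP day 2 against day 1. Shares of all genes called under these fits are not given here.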

How the results depend on the processing

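The counts of members called lower at PAM day 2 (41 to 46) and at indirect CAP day 2 (35 to 46) stayed within 1.5 times under all alternatives run, and no named member changed sign where it was called. At PAM day 1 the count of 20 was 14 after quantile normalization, 22 with the replicate block (19 of them shared) and 45 at an adjusted p under 0.05 alone, and it ran from 15 (without line 2 or without line 4) to 32 (without line 1). The 2 calls after direct CAP for 24 h became 0 with all 7 groups in 1 fit, 1 with the replicate block, 35 at an adjusted p under 0.05 and 0 to 1 with a library left out. The 1 call at indirect CAP day 1 became 0 with all 7 groups, 0 with the replicate block, 31 at an adjusted p under 0.05 and 0 to 1 with a library left out. For indirect CAP day 2 against day 1, 0 calls became 1 with all 7 groups, 11 with the replicate block and 26 at an adjusted p under 0.05. For PAM day 2 against day 1, 0 became 28 with all 7 groups. Shares of all genes called with the block or with all 7 groups are not given here. The block left counts of other comparisons within 1.5 times. The causes were not tested. Quantile normalization moved the median of all genes at PAM day 2 from -0.12 to 0.00 and that of the members from -2.19 to -1.94. Depth limits the low members most, such as Gins1 at 19 to 53 scaled reads at PAM day 2.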

Other observations

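Of the other cell type markers, those of stem cells had a median log2 fold change of -3.99 at PAM day 2 and -3.52 at PAM day 1, and all 5 were called lower in both groups by limma. At PAM day 1 their sum was 2093 ± 699 (SD, n = 3) while that of the 5 cycling markers was 10421 ± 2815, against 36022 ± 2840 and 19373 ± 2341 in the untreated libraries (n = 4). The 3 Paneth cell markers had medians of -1.78 at PAM day 1 and -1.30 at PAM day 2. Of these 3, 2 were called lower at PAM day 1 (5.4% of all genes) and 0 at PAM day 2 (10.5%). The 4 goblet cell markers had medians of 0.68 (from -0.05 to 2.03) and -1.17 (from -2.40 to -0.14) in these groups. Clca1 was called higher at PAM day 1, and 0 goblet markers were called lower at PAM day 2. Their sums there ran from 4536 to 14921, against 16339 to 25174 untreated.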
